A study of Mus musculus with 6 samples.

Results

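The regions described here are stretches of open chromatin in mouse thymus that were called in 1 ATAC-seq library and in none of the other 5. Every peak summit on chromosomes 1 to 19 was widened to 250 bp either way, and windows that touched, from whichever library, were joined, which gave 72291 regions. A region was kept as private when exactly 1 library had a summit in it, when the score of that summit was at least 5, and when no summit of any other library lay within 2 kb. The score is the −log10 of the q-value that the authors deposited with each summit. The rule found 3165 private regions, which is 4.38% of all merged regions. The regions were chosen by presence, score and isolation, so their counts and scores are descriptions without a test.

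The study compared open chromatin in the thymus of mice with germline alterations of p53, the tumour suppressor that activates genes of cell cycle arrest, DNA repair and cell death. The p53 AD/- mice carried 1 AD allele, called dimeric in the description of the series, over a null allele. The p53 -/- mice (p53-null) carried no AD allele, so both genotypes shared at least 1 null allele and neither is wild type. Each genotype had 3 libraries, all from mice aged 4 weeks of mixed background (50% BALB/C - 50% C57BL6), and the labels do not state that the libraries came from different mice. P-values therefore measure the spread between these libraries, which may be technical. Whole thymus is a mixture of cells, so a region open in few cells and a region weakly open in many cells cannot be told apart. A merged region was assigned within 50 kb to 71.9% of all genes, to 12 of 12 T cell, 9 of 10 myeloid and dendritic, 6 of 8 B cell and 6 of 7 mature T and NK markers, and to 8 of 12 thymic epithelial, 6 of 8 endothelial, 5 of 8 mesenchymal, 6 of 6 adipose and 3 of 5 erythroid markers.

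ATAC-seq reads out DNA that is not wrapped in nucleosomes, mostly at promoters and at enhancers. Promoters of genes used in many cell types often lie in CpG islands, stretches rich in the dinucleotide CG, and tend to be open in most tissues, whereas enhancers differ more between cell types. The thymus is filled mostly with developing T cells, and epithelial, myeloid, endothelial and mesenchymal cells form its minority populations. A peak caller draws a line through a continuous signal, so a weak site can be called in 1 library and missed in another.

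A private summit fell within a promoter in a small minority of cases, and the promoters below show what such sequences look like. For each library with one, the promoter shown is that of the most isolated private summit that fell within a promoter, at a gene with a proper symbol. Each sequence holds the 250 bases before an annotated start site, read 5′ to 3′ on the strand of the gene, from RefSeq on build GRCm38.p6. Capitals mark each CG dinucleotide. Dact2, a modulator of Wnt signalling, lies on the minus strand at chr17:14203832-14204081 and belongs to AD/- library 1. Elavl2, a neuronal RNA-binding protein, lies on the minus strand at chr4:91376471-91376720 and belongs to AD/- library 2. Slc10a6, a steroid sulfate transporter, lies on the minus strand at chr5:103629404-103629653 and belongs to null library 1. Pcdh10, a protocadherin of neuronal adhesion, lies on the plus strand at chr3:45378148-45378397 and belongs to null library 2. Cldn1, a tight junction protein, lies on the minus strand at chr16:26371840-26372089 and belongs to null library 3.
Dact2: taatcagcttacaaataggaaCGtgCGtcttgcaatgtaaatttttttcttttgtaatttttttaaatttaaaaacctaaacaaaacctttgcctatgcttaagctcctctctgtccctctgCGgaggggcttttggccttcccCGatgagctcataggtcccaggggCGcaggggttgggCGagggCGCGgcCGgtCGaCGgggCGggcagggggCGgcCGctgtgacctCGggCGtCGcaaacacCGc
Elavl2: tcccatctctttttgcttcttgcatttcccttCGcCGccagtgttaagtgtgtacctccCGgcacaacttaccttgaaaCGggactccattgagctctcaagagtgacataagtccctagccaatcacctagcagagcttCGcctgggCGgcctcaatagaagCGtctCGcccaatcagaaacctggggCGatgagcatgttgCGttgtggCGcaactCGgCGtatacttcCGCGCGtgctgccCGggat
Slc10a6: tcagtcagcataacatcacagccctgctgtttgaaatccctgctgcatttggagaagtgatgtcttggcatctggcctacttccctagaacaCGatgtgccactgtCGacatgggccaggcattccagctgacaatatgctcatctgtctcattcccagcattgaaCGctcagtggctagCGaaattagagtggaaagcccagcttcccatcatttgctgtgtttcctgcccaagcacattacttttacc
Pcdh10: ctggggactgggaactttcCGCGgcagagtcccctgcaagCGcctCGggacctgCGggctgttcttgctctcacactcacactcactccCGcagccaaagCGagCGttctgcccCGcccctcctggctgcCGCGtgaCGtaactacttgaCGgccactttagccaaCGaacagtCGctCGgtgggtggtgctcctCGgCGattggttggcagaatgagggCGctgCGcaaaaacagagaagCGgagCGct
Cldn1: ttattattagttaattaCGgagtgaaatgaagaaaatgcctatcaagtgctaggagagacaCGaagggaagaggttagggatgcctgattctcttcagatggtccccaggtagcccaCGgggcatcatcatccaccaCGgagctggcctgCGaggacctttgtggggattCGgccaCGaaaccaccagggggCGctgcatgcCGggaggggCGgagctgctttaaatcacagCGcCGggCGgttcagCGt

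The promoters of Pcdh10, Dact2, Elavl2 and Cldn1 held 22, 18, 17 and 14 CG dinucleotides in these 250 bases, and that of Slc10a6 held 4. The summit of Pcdh10 lay 126 bases upstream of its start site, and the nearest summit of any other library was 3635697 bp away. The summit of Elavl2 lay 93 bases upstream of its start site, and the nearest other summit was 1825799 bp away. Another library had its nearest summit 209709 bp from the summit of Cldn1, 84609 bp from that of Dact2 and 25964 bp from that of Slc10a6.

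A further 3 promoters, chosen after their values were seen, belong to an interleukin, a metabolic kinase and an apolipoprotein gene. Il4, the cytokine of type 2 helper T cells, lies on the minus strand at chr11:53617339-53617588 and belongs to null library 3. Pdk4, a kinase that turns off pyruvate dehydrogenase and a classic target of the PPAR receptors, lies on the minus strand at chr6:5496279-5496528 and belongs to AD/- library 2. Apol7e, a member of the apolipoprotein L family, has a start site on the plus strand with the bases chr15:77698639-77698888 before it, and its private summit belongs to null library 2.
Il4: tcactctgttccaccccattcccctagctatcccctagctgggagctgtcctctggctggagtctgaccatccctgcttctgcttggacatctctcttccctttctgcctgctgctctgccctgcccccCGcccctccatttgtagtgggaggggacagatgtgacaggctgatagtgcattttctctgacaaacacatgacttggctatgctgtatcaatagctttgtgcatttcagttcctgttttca
Pdk4: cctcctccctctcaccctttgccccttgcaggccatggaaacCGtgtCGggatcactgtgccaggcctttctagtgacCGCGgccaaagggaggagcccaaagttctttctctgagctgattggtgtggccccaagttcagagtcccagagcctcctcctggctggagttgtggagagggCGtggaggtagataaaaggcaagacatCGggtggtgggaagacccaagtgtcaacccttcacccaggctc
Apol7e: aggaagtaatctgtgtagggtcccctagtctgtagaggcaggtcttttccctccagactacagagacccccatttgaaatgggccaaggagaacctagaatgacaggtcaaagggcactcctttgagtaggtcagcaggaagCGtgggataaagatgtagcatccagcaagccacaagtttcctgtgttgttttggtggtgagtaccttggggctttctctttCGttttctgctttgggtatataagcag

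These stretches held 1 CG in Il4, 6 in Pdk4 and 2 in Apol7e. The summit of Il4 lay 91 bases upstream of the start, had a score of 7.65 and was 9471 bp from the nearest summit of another library. The summit of Pdk4 lay 162 bases upstream, had a score of 6.65 and was 52842 bp from the nearest other summit. The summit of Apol7e lay 39 bases upstream, had a score of 31.9 and was 3715 bp from a summit of null library 3, which is itself private and described below.

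Private regions were left over after 3 steps. Of the merged regions, 11912 (16.5%) had a summit in a single library. Of these, 6923 had a score below 5, and another 1824 had a summit of a different library within 2 kb. The 3165 that remained are 26.6% of the single-library regions. A second summit of the same library was present in 3 of them.

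The number of private regions differed widely among libraries of 1 genotype. AD/- libraries 1, 2 and 3 held 288, 946 and 64, and null libraries 1, 2 and 3 held 480, 657 and 730. The highest and the lowest count were both in AD/- libraries, and all null libraries lay between AD/- library 1 and AD/- library 2. Read depth is unknown. The summit lists, which stand in for depth here, held 53526, 58996 and 43589 autosomal summits in AD/- libraries 1 to 3, and 53102, 54558 and 56836 in null libraries 1 to 3. The longest list therefore had the most private regions and the shortest list the fewest.

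**Figure D1:**
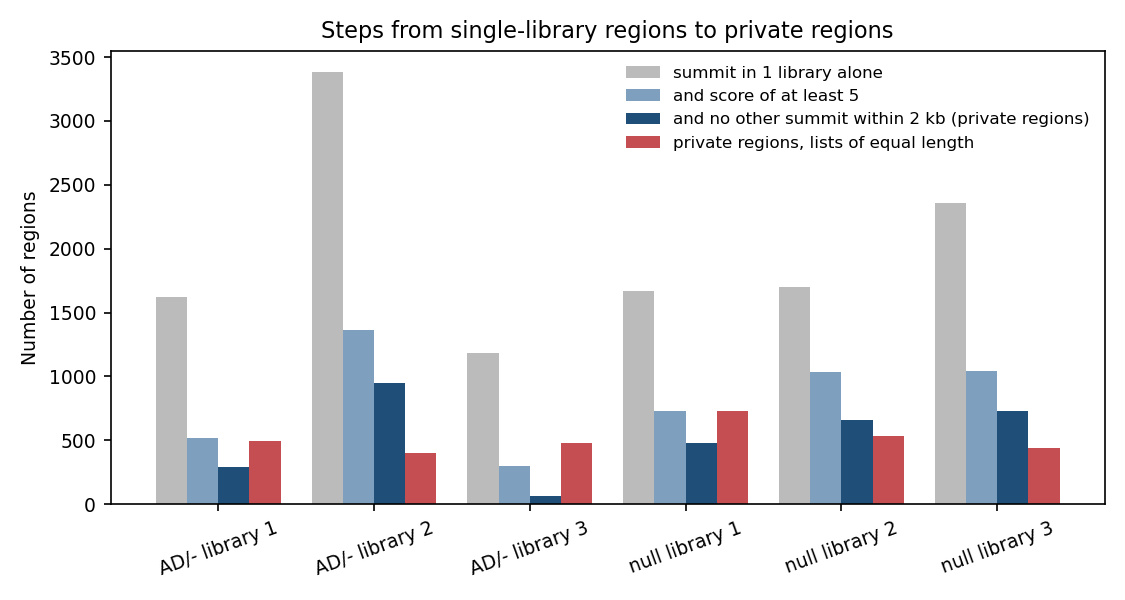
Number of regions (vertical axis) in each of the 6 libraries (horizontal axis) that have a summit in that library alone, that also reach a score of 5, and that also have no other library's summit within 2 kb (private regions), with the private regions found when every list is shortened to its 43589 best summits. The counts of private regions run from 64 in AD/- library 3 to 946 in AD/- library 2, and from 398 to 726 with lists of equal length.

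Shortening every list to its 43589 best-scoring summits changed which libraries had many private regions but hardly their sum. AD/- libraries 1, 2 and 3 then held 492, 398 and 482, null libraries 1, 2 and 3 held 726, 534 and 443, and the sum was 3075. AD/- library 2 went from the most to the fewest, and AD/- library 3 rose above AD/- library 2. The cut took the lowest-scoring summits from every list but that of AD/- library 3, and private summits ranked low in their lists. The 3075 regions therefore need not be those of the full lists, and the overlap was not counted. A fall in AD/- library 2, which had the longest list, follows in part from the cut itself. The order of the libraries thus depended on the length of their lists.

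AD/- library 3 stood apart in the last step of the rule as well. Of its single-library regions with a score of at least 5, 78.7% (236 of 300) had a summit of another library within 2 kb. The share was 44.7% in AD/- library 1, 30.5% in AD/- library 2 and 34.2%, 36.3% and 30.1% in null libraries 1 to 3. Tested differences are therefore also given without it.

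Leaving out 1 library raised the number of private regions in each library that remained, and under the rule it could not lower it. Regions gained this way can be former 2-library regions. They can also be single-library regions that had a summit of the omitted library within 2 kb. The counts do not separate these. Without AD/- library 2, AD/- library 1 had 489 private regions in place of 288. Without null library 3, AD/- library 2 had 1393 in place of 946. AD/- library 3 held 82 to 92 under each omission, and the sum over the 5 libraries left ranged from 3312 to 3580.

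Private summits were weak within their own library. A percentile is the rank of a score in its own list, with 100 at the top. The median percentile of private summits was 12.9, 14.9 and 17.9 in AD/- libraries 1 to 3 and 16.1, 10.4 and 13.5 in null libraries 1 to 3. A score of 5 was itself not equally strict: 8.23%, 8.28% and 11.4% of the summits of AD/- libraries 1 to 3 and 8.17%, 3.63% and 7.09% of those of null libraries 1 to 3 lay below it. Only 8 of 3165 private summits were above the 50th percentile, 3 each in null libraries 1 and 3 and 1 each in AD/- libraries 2 and 3. The median percentile rose with the number of libraries that shared a region, from 13.8 over all private regions to 16.3, 19.5, 23.1 and 30.3 for 2 to 5 libraries and 65.1 for all 6. The percentile of a region is that of its highest-scoring summit, so regions of more libraries have more summits to choose from. Part of this rise can therefore follow from how the value is taken.

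Many private summits shared their exact score. Of the private summits, 69.4%, 64% and 45.3% in AD/- libraries 1 to 3 and 72.9%, 65.0% and 65.1% in null libraries 1 to 3 had exactly the same score as another private summit of their library. For regions of all 6 libraries the share was 14.9% to 25.1%. Those regions ranked far higher, with a median percentile of 65.1 against 13.8 for private regions. The share was not counted for regions of 2 libraries, so shared scores are not shown to be particular to private summits. In AD/- library 2, 82 private summits had the score 5.49 and 77 the score 6.06. In null library 1, 51 had the score 5.01, which is just over the threshold of the rule. Each library had its own ladder of scores, so the threshold of 5 fell between different steps in each.

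**Figure D2:**
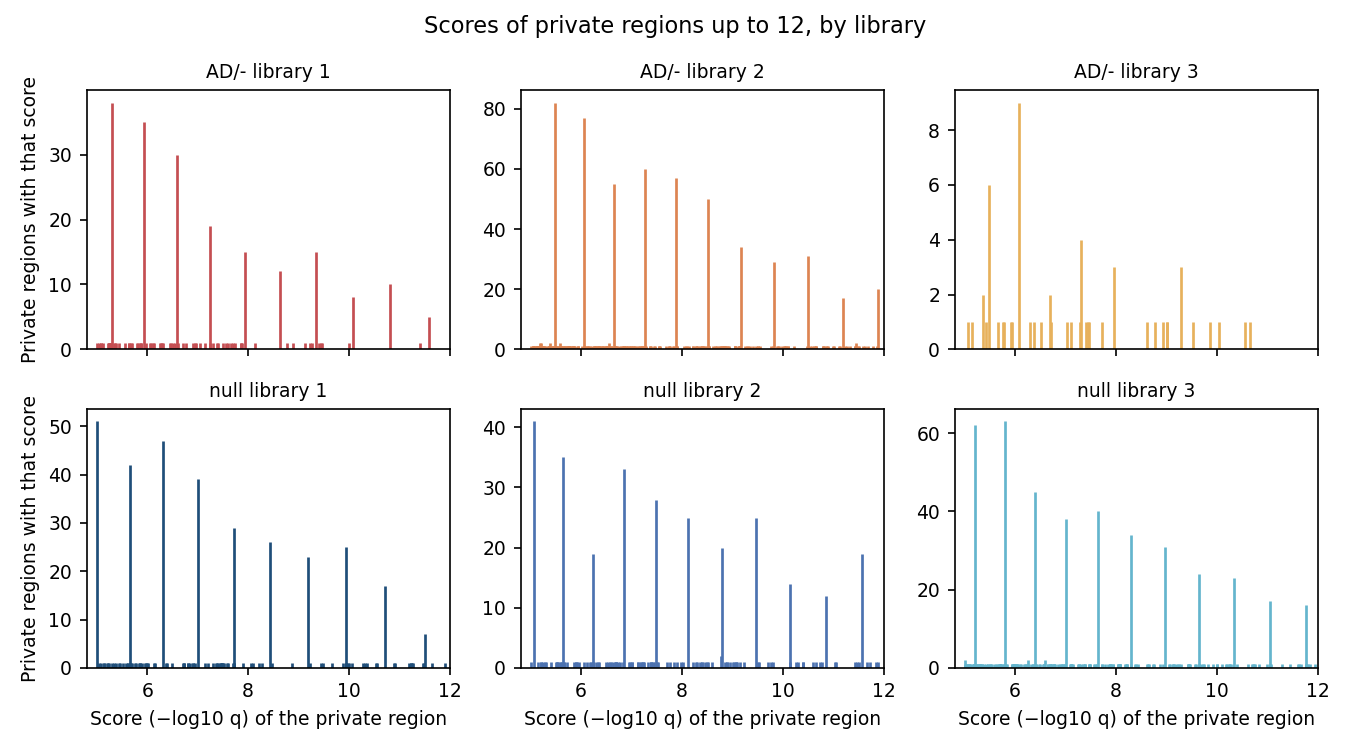
Number of private regions (vertical axis) with each exact score (horizontal axis, −log10 q, up to 12) in each of the 6 libraries. Scores pile up on separate steps, with 38 regions at 5.31 in AD/- library 1, 82 at 5.49 in AD/- library 2, 9 at 6.08 in AD/- library 3, 51 at 5.01 in null library 1, 41 at 5.06 in null library 2 and 63 at 5.79 in null library 3.

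The limits of the rule passed through a dense field of values. Just inside the score limit were summits near Mbp in null library 2 (5.006), Irf2 in AD/- library 1 (5.006) and Dock2 in AD/- library 2 (5.008). Just outside were summits near Cd83 in AD/- library 3 (4.9995), Slc29a1 in null library 2 (4.997) and Gpr171 in AD/- library 1 (4.996). Just inside the distance limit were summits near Hes1 and Chit1 in null library 3, with another library's summit 2003 and 2006 bp away, and near Egln3 in null library 2 at 2008 bp. Just outside, at 1998 bp each, were summits near Ppp1r15b and Ano6 in null library 2 and Gm4606 in AD/- library 2. The nearest summit of another library was at a median of 7182 bp, and 1085 private regions (34.3%) had it within 5 kb.

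The first question that the rule left open to a test was where private regions lie relative to genes. Few lay at the ends of genes. Genes were protein-coding RefSeq genes, and since their table gives no strand and no exons, either end of a gene was counted and exons and introns were not told apart. Of the private regions, 169 (5.34%) had their summit within 1 kb of a gene end, 1706 (53.9%) lay inside a gene and farther than 1 kb from the ends of genes, and 1290 (40.8%) lay between genes. The median distance to the nearest gene end was 18921 bp, and 785 (24.8%) were more than 50 kb from one.

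The share at a gene end was low in each library. It was 6.25% (95% Wilson interval 3.99 to 9.66) in AD/- library 1, 5.29% (4.03 to 6.90) in AD/- library 2 and 1.56% (0.276 to 8.33) in AD/- library 3, where it rests on 1 region of 64. It was 6.67% (4.76 to 9.26), 6.09% (4.50 to 8.18) and 3.84% (2.67 to 5.49) in null libraries 1 to 3. These intervals cover counting error only. The libraries of the 2 genotypes overlapped, with null library 3 below AD/- libraries 1 and 2.

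All other regions of the same libraries had a gene end in 20.7% to 25.2% of cases. The private share was 4.95% ± 1.94 (SD, n = 6 libraries) and that of all other regions 22.1% ± 1.61, a mean difference of -17.2 percentage points, and -15.9 without AD/- library 3. The rule bears on this gap. A private summit had no summit of another library within 2 kb, so a gene end with a summit of another library within 1 kb could not also have a private one, while the other regions carry no such bar. The gap is therefore given as a description, without its p-value.

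Regions of 2 to 5 libraries, held to the same score and isolation, had low shares as well. The share at a gene end was 5.34% for 3165 private regions, 5.32% for 2912 regions of 2 libraries, 6.51% for 2889 regions of 3, 6.65% for 3126 of 4 and 7.49% for 5796 of 5, and then 27.6% for 37604 regions of all 6. No library is left to be isolated from in regions of all 6, so isolation does not select among them. Without the condition on isolation, a setting added after the values were seen, the shares were 7.94%, 7.06%, 7.83%, 8.02% and 8.22% for 1 to 5 libraries. The step between 5 and 6 libraries was present under both settings. AD/- library 3, with the shortest list, had a summit in 1151 of the 5796 regions of 5 libraries, and each other library in 5393 to 5725. The score limit applied to the highest summit of a region, and isolation only to the libraries not in it. The classes therefore differ in more than the number of libraries.

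**Figure D3:**
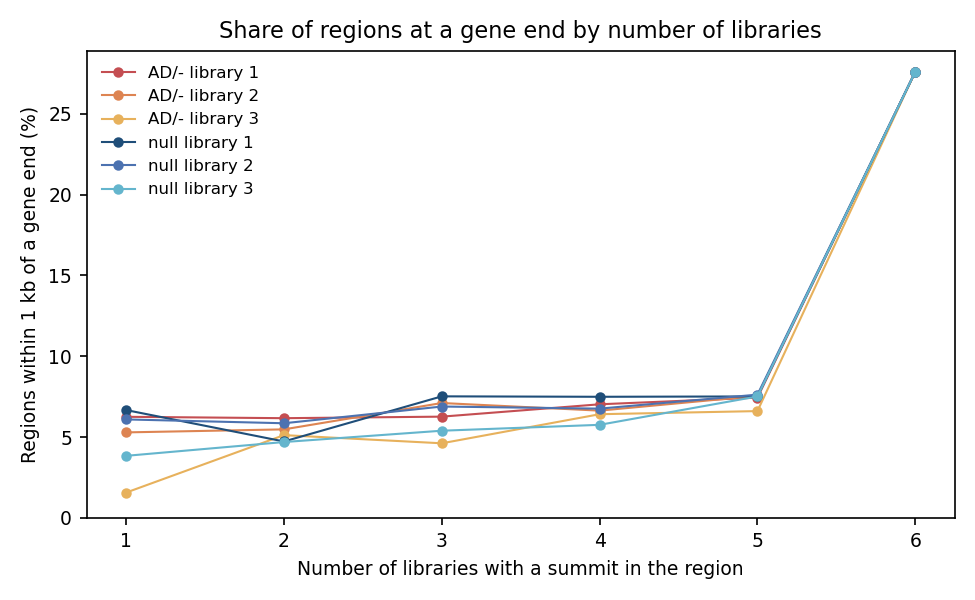
Share of regions within 1 kb of a gene end (vertical axis, percent) against the number of libraries with a summit in the region (horizontal axis), with 1 line per library. The lines lie between 1.56% and 7.62% from 1 to 5 libraries and reach 27.6% at 6, where all libraries hold the same regions and isolation does not select.

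The direct comparison with regions of exactly 2 libraries found no difference past the threshold. The 2-library regions of the same libraries had a gene end in 5.34% ± 0.602 of cases, and the mean difference was -0.388 ± 1.81 (SD) percentage points, with the private share higher in 3 of 6 libraries (exact two-sided sign-flip permutation p = 0.688, adjusted over 5 within-library tests p = 0.969). Without AD/- library 3 the difference turned to 0.318. The adjustment over 5 tests counts the comparison with all other regions, which is described above without its p-value. The share inside a gene was 51.8% ± 5.69 for private and 52.5% ± 2.17 for 2-library regions, a difference of -0.731 ± 3.81, higher in 3 of 6 libraries (exact permutation p = 0.813, adjusted p = 0.969), and it turned to 0.178 without AD/- library 3. The median distance to a gene end was 18503 ± 3890 bp for private and 18319 ± 2036 bp for 2-library regions, with a mean difference of 183 ± 5080 bp, higher in 4 of 6 libraries (exact permutation p = 0.969, adjusted p = 0.969), and it was 1983 bp without AD/- library 3. The spread of these differences over libraries is several times their mean.

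Private regions of AD/- and null libraries were then compared with each other. The share at a gene end was 4.37% ± 2.48 (SD, n = 3) in AD/- and 5.53% ± 1.5 in null libraries, a difference of -1.16 percentage points (exact two-sided permutation p = 0.6, adjusted over 3 tests p = 0.6). Without AD/- library 3 the difference turned to 0.399. With 3 libraries against 3 this exact test cannot go below p = 0.1.

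The share inside a gene was 52.4%, 52.5% and 40.6% in AD/- libraries 1 to 3 and 53.8%, 55.1% and 56.4% in null libraries 1 to 3. All AD/- libraries lay below all null libraries, by a margin as narrow as 52.5% against 53.8%. The means were 48.5% ± 6.85 and 55.1% ± 1.34 (n = 3 each), a difference of -6.56 percentage points (exact two-sided permutation p = 0.1, the smallest possible, adjusted p = 0.3). Without AD/- library 3 the difference was -2.88 percentage points, with lists of equal length -1.12 and with a score of at least 10 -1.55 (exact permutation p = 0.7 for both of the latter).

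The median distance to a gene end was 22418, 16606 and 12349 bp in AD/- libraries 1 to 3 and 17210, 22328 and 20105 bp in null libraries 1 to 3. The values of the genotypes overlapped. The means were 17124 ± 5054 and 19881 ± 2567 bp (n = 3 each, exact two-sided permutation p = 0.5, adjusted p = 0.6), a difference of -2757 bp. Without AD/- library 3 the difference was -356 bp.

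Pooled over the libraries, private regions far from any other library's summit were more often at a gene end. The share was 4.79% (52 of 1085; 95% Wilson interval 3.67 to 6.23) where the nearest other summit was 2 to 5 kb away, 3.75% (34 of 907) at 5 to 10 kb and 5.69% (53 of 931) at 10 to 50 kb. It was 9.55% (15 of 157; 5.88 to 15.2) at 50 to 100 kb and 17.6% (15 of 85; 11.0 to 27.1) beyond 100 kb. These intervals cover counting error only, not the spread between libraries. At 50 to 100 kb the counts were 2 of 12, 8 of 45 and 0 of 2 in AD/- libraries 1 to 3. In null libraries 1 to 3 they were 3 of 34, 2 of 42 and 0 of 22. Beyond 100 kb they were 2 of 11, 5 of 23 and 0 of 5, and 3 of 12, 4 of 25 and 1 of 9. Regions of exactly 2 libraries followed the same course, with 18.3% (13 of 71; 11.0 to 28.8) beyond 100 kb. The rise was therefore not shown to be particular to private regions, and isolation was part of the rule, so no test is given.

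**Figure D4:**
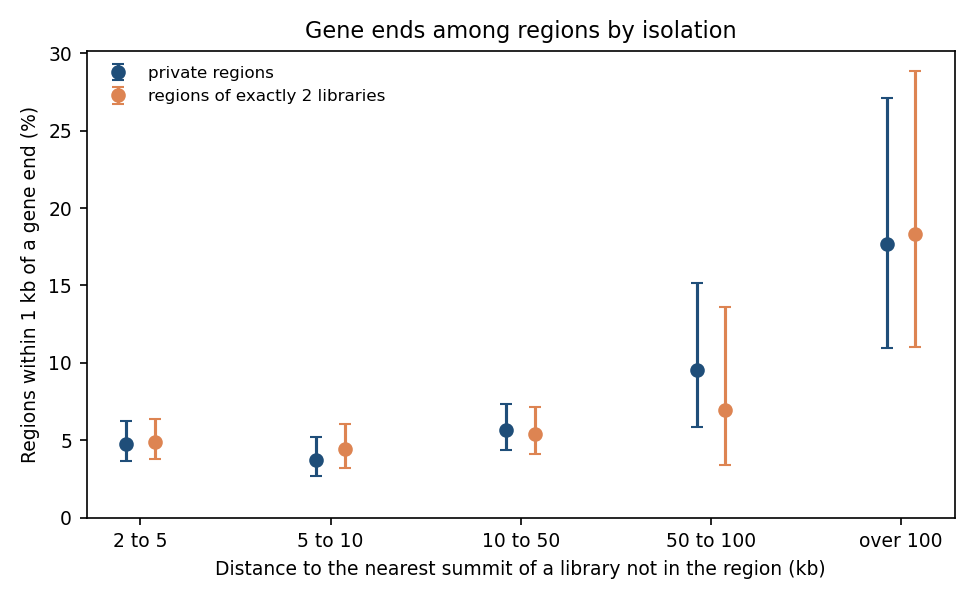
Share of regions within 1 kb of a gene end (vertical axis, percent, with 95% Wilson intervals) against the distance to the nearest summit of a library that is not in the region (horizontal axis, kb), for private regions and for regions of exactly 2 libraries. Regions are pooled over the libraries. Both kinds lie below 6% up to 50 kb and reach 17.6% and 18.3% beyond 100 kb.

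The 15 private regions at a gene end beyond 100 kb are named here, picked for their isolation. Null library 2 had 4 of them, at Pcdh10, at Khdrbs2, an RNA-binding protein, at Isl1, a homeobox factor of motor neurons and heart progenitors, and at Tbx5, a T-box factor of heart and forelimb. Its summits lay 126, 99, 60 and 571 bp from the end of these genes. AD/- library 2 had 5, at Dpyd, the enzyme that breaks down pyrimidines (105 bp), at Nav3, a neuronal microtubule protein (189 bp), at Glb1l2 (62 bp), at Gbe1, the glycogen branching enzyme (951 bp), and at 4930505A04Rik (106 bp). Null library 1 had 3, at Sema3d, a secreted axon guidance protein (344 bp), at Glra1, a glycine receptor subunit (257 bp), and at Ctsg, a protease of neutrophils (763 bp).

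AD/- library 1 had 2 such regions, at Sfrp1, a secreted inhibitor of Wnt signals (41 bp), and at Ccdc105 (65 bp), and null library 3 had 1, at Cldn1 (63 bp). AD/- library 3 had 0 of 5. These summits had percentiles of 8.74 (Khdrbs2) to 20.2 (Glra1) in their libraries and were not high among private summits. That of Sfrp1 lay in no annotated promoter window, so Sfrp1 is not among the promoters shown. Some summits far from a gene end still sat at an annotated start, such as that of Elavl2, whose summit lay 23545 bp from the end of the gene and inside it.

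Other members beyond 100 kb lay inside genes or farther from their ends. AD/- library 2 had a summit inside Grm7, a glutamate receptor, 1526499 bp from the nearest summit of another library. Null library 2 had one 1318 bp from an end of Epha4, an axon guidance receptor (903389 bp from another library), one inside Gpc5, a glypican (817203 bp), and one inside Col22a1, a collagen (631721 bp). AD/- library 1 had one inside Has2, a hyaluronan synthase, at 645271 bp, and AD/- library 3 had one 30591 bp from Vmn1r77, a pheromone receptor, at 411760 bp. In all, 85 private regions were more than 100 kb from any other library's summit.

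Annotated promoters were read from 31396 windows of 300 bases, which run from 250 bases before to 50 after each start site. A private summit lay in 79 of them, 0.252% of all windows, and these came from 74 private regions (2.34% of all members). AD/- libraries 1, 2 and 3 had 10, 30 and 0 such windows, and null libraries 1, 2 and 3 had 13, 14 and 12. For AD/- library 3, a count of 0 among 64 regions allows a share of up to 4.69%. In 18 of the 74 regions no other library had a summit within 50 kb. Among all 3165 private regions, 157 had the nearest one at 50 to 100 kb and 85 beyond 100 kb.

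The promoters with a private summit had a lower median count of CG dinucleotides than those with a summit of all 6 libraries, which the rule closes to private summits. The median was 12 CG per window for the 79 private windows, 9 for the 71 windows with a 2-library summit, 24 for 8819 windows with a summit of all 6 libraries and 7 for all windows. At least 20 CG were present in 25.3% of private windows (20 of 79), 18.3% of 2-library windows, 65.4% of windows of all 6 libraries and 27.0% of all windows. By library the private median was 9.5 in AD/- library 1, 11.5 in AD/- library 2, and 7, 18 and 10 in null libraries 1 to 3.

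**Figure D5:**
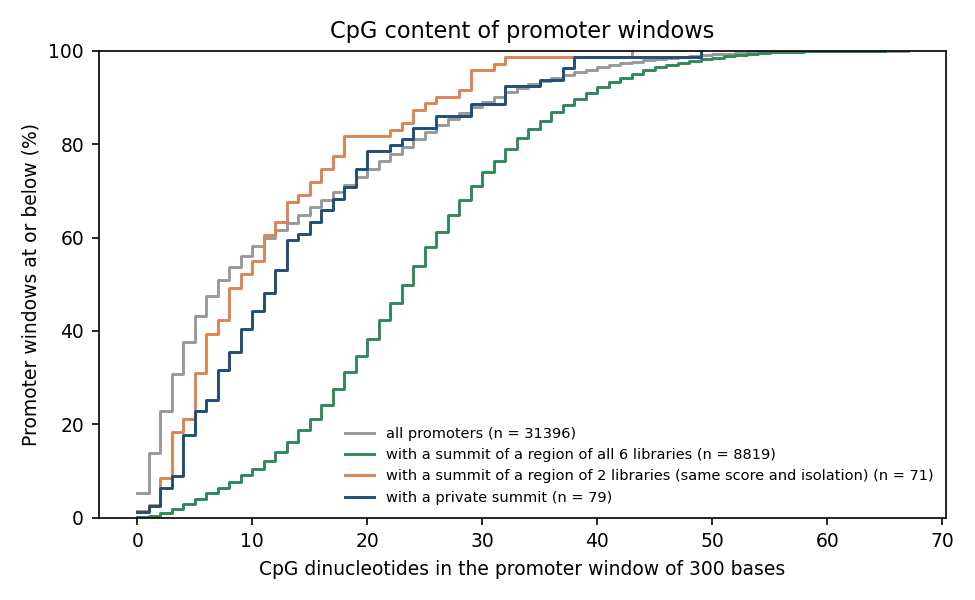
Share of promoter windows (vertical axis, cumulative percent) that hold at most a given number of CG dinucleotides (horizontal axis, per 300 bases), for all promoters, those with a summit of a region of all 6 libraries, of 2 libraries, and with a private summit. The private curve has its median at 12 CG, between those of all promoters (7) and of promoters open in all 6 libraries (24).

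Among the CG-rich private promoters were those of Homer2, a scaffold protein of synapses (null library 2, 49 CG), Kank4 (AD/- library 2, 38 CG), Isl1 (null library 2, 37 CG) and Adcy1, a neuronal adenylate cyclase (null library 3, 37 CG). Among the CG-poor ones were those of Ms4a4c (null library 3, 0 CG), Il4 (1 CG), Plek, a platelet and leukocyte protein (AD/- library 2, 4 CG), and Slamf8, a myeloid surface receptor (AD/- library 2, 4 CG). Both kinds were thus found among the members, and the examples were picked for their CG counts.

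Short motifs were counted in the same windows on both strands, as a description. The GC box GGGCGG was in 48.1% of private windows, 46.5% of 2-library windows, 72.1% of windows of all 6 libraries and 36.0% of all windows. CCAAT was in 40.5% of private windows and 37.3% of all windows. The ETS motif CCGGAAG was in 2.53% of private windows (2 of 79), 5.63% of 2-library windows, 22.0% of windows of all 6 libraries and 9.0% of all. The motif TATAAA was in 5.06% of private windows, against 13.6% of all and 5.52% of those of all 6 libraries. The E-box CAGCTG was in 25.3% and 16.3% of private and all windows, the RUNX motif TGTGGT in 11.4% and 16.7%, and the AP-1 motif TGACTCA in 6.33% and 5.26%. A match to the p53 half-site was in 6.33% of private windows (5 of 79) and 8.35% of all windows. With 79 windows, differences of a few percentage points rest on a few promoters.

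The highest private regions by percentile are given for those within 50 kb of a gene end. In AD/- library 1 they were near Ergic1, a protein of the early secretory pathway (chr17:26660160-26660660, percentile 46.3), Trp53rka, a kinase named for its action on p53 (35.0), Rnh1, the ribonuclease inhibitor (34.8), and Rsl24d1, a ribosome assembly factor (33.2). In AD/- library 2 they were near Rps16, a protein of the small ribosomal subunit (chr7:28355143-28355643, 48.9), inside Zcchc24 (47.5), near Msl2, a chromatin ubiquitin ligase (47.1), and near Ilf2, an RNA-binding protein (44.7). None of these lay within 1 kb of a gene end, and the distances were 1380 to 16752 bp.

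In AD/- library 3 the highest was inside Csrnp1, a nuclear protein induced by signals (chr9:119981406-119981906, percentile 64.7, score 45.7), which is the highest percentile of any private region. Its nearest summit of another library was 2177 bp away, close to the limit of the rule. The next were inside Slc1a5, a glutamine transporter (36.4), near Mmp12, the macrophage elastase (36.0), and near Vmn1r77 (34.0). The step from the first to the second of these was larger here than in the other libraries.

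In null library 1 the highest were near Syngr1, a synaptic vesicle protein (chr15:80088569-80089069, percentile 52.8), inside Espn, an actin-bundling protein (52.7), inside Adar, an RNA-editing enzyme (51.5), and near Meis2, a homeobox factor (48.0). In null library 2 they were inside Tgif1, a transcriptional repressor (chr17:70847022-70847522, 42.1), inside Dpy30, a subunit of histone methyltransferase complexes (40.1), near Tial1, an RNA-binding protein (39.2), and inside Uck2, a uridine-cytidine kinase (38.4). In null library 3 they were inside Slc17a1, a phosphate transporter (chr13:23885453-23885953, 59.2), near Apol7e (58.7), near Sh3bp5 (56.7) and inside Dmtn, a protein of the red cell skeleton (44.4). Of these 12 in null libraries, Meis2 was the most isolated, with the nearest other summit 188216 bp away.

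Some private regions farther than 50 kb from a gene end ranked among these. AD/- library 2 had its highest percentile, 53.7, inside Vti1a, a protein of vesicle transport, 98210 bp from the nearest gene end, which is that of Zdhhc6. AD/- library 1 had one inside Gse1 (38.5) and one 122713 bp from Bambi, a decoy receptor of TGF-beta signals (35.7). Null library 2 had them 60991 bp from Ier5 (41.2), inside Myh10, a non-muscle myosin (40.5), and inside Wwox, an oxidoreductase (39.7).

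The highest members at a gene end gave a second view. Among them were Nfu1, an iron-sulfur cluster protein, and Cd300e, a myeloid receptor, in AD/- library 1 (percentiles 20.5 and 18.8), and among those of AD/- library 2 was Rpl26, a protein of the large ribosomal subunit (37.0). In AD/- library 3 the single member was at Grasp (23.1). In null library 1 came Slc6a3, the dopamine transporter, and Iho1, a meiotic protein (30.3 and 27.1). In null library 2 came Lars2, a mitochondrial tRNA synthetase, and Pclaf, a partner of PCNA (37.2 and 30.6), and in null library 3 Apol7e and Gpr183, an oxysterol receptor of lymphocytes (58.7 and 29.4). AD/- library 2 thus had leading members 2695 bp from Rps16 and 376 bp from the end of Rpl26. The share of ribosomal protein genes with a private region was not counted.

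At Apol7e, 2 libraries of 1 genotype each had a private region. Null library 3 had a summit at position 77695135 of chromosome 15 with a percentile of 58.7, 571 bp from the end of the gene model. Null library 2 had its summit at 77698850 with a percentile of 30.3, 39 bases upstream of an annotated start site. AD/- libraries 1 to 3 and null library 1 had no summit within 2 kb of either.

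Several of the 64 members of AD/- library 3 lay in pairs or beside clustered gene families, and they were picked after their values were seen. It had 2 regions assigned to A530032D15Rik on chromosome 1 (percentiles 18.7 and 30.7), 2 to Zfp981 (27.5 and 19.3) and 1 to Zfp982 (18.3), both zinc finger genes of chromosome 4, and 2 near Mmp12 (24.8 and 36.0). At A530032D15Rik the nearest summits of other libraries were 191458 and 187066 bp away, at Mmp12 86361 and 90207 bp, and at Zfp981 and Zfp982 2278 to 14973 bp. The sources used here do not give how reads that align to several copies were treated, and the part of such reads in these regions was not tested.

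Private regions were spread thinly over genes. Each region within 50 kb of a gene end was assigned to the nearest protein-coding gene, and 2380 regions were assigned to 2087 of 20665 genes (10.1%). Of the 14849 genes with a region of any kind assigned, 14.1% had a private one. A single private region was assigned to 1835 genes, 2 to 217, 3 to 30, 4 to 4 genes and 5 to 1. Genes with a private region had a median length of 44.2 kb against 17.5 kb for all genes. All genes include those with no region of any kind. The length of genes with any region was not taken, so the difference is not shown to be particular to private regions.

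Private regions of at least 3 libraries were assigned to 20 genes (0.0968% of all genes). Cd2, an adhesion receptor of T cells, had the most: 5 regions of 3 libraries on chromosome 3, with percentiles of 29.8 in null library 1, 31.9 and 9.58 in null library 2 and 8.81 and 16.3 in AD/- library 2. These lay 12617 to 43147 bp from the gene, on both sides of it. Msra, which repairs oxidised methionine, had 4 regions of 3 libraries inside it, Abtb2 and Arhgef7 had 3 each inside them, and Bach2, a repressor that restrains lymphocyte activation, had 3. None of these regions lay within 1 kb of a gene end.

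Counting all private summits inside a gene, whatever the distance to its ends, placed Themis, a signalling protein of thymocyte selection, beside Msra at the top, a count made after the values were seen. Themis held 6 private summits of 5 libraries between 28674095 and 28871608 on chromosome 10: 1 each in AD/- libraries 1 and 3 and null libraries 1 and 2, and 2 in null library 3. Their percentiles were 8.97 and 12.9 in AD/- libraries 1 and 3, 15.5 and 5.53 in null libraries 1 and 2, and 9.51 and 13.9 in null library 3. Each had another library's summit 2237 to 7925 bp away, so the private summits stood among others inside this gene. Msra held 6 summits of 5 libraries, and Pde4d, a cAMP phosphodiesterase, held 5, of which 2 were in AD/- library 1 and 3 in AD/- library 2. Dock2, Elmo1, Hecw2 and Rad51b held 4 each, of 3 libraries, and Itga9 held 4 of 2 libraries.

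Of 44 genes of T cell development, 8 (18.2%) had a private region, beside 10.1% of all genes and 14.1% of genes with any region. All 44 had some region, and their median length was 30.6 kb. Among these were Kit, a growth factor receptor of early progenitors, Hes1, a target of Notch, Tox, Bcl2, Bcl2l11, Cd28 and Myb. Kit had a private region of null library 1 at 13048 bp (percentile 27.7), and Hes1 had 1 each of null libraries 2 and 3 at 41776 and 42552 bp (20.3 and 13.1). The list's 11 regions came from AD/- library 1 (1), AD/- library 2 (2), and null libraries 1, 2 and 3 (2, 4 and 2).

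The marker lists of cell types gave a private region at few genes each. T cell markers had it at 2 of 12 (Themis and Bcl11b), B cell markers at 1 of 8 (Blk), markers of mature T, NK and gamma-delta T cells at 2 of 7 (Klrb1c and Cd44), and myeloid and dendritic markers at 4 of 10 (Itgam, Flt3, Spi1 and Adgre1). Endothelial markers had it at 1 of 8 (Pecam1), mesenchymal markers at 1 of 8 (Col1a1) and adipose markers at 1 of 6 (Adipoq). Erythroid and thymic epithelial markers had it at 0 of 5 and 0 of 12. Of the markers with any region, 44.4% of myeloid and dendritic, 33.3% of mature T and NK and 20% of mesenchymal ones had it. It was 16.7% for T cell, B cell, endothelial and adipose ones, 0 of 3 for erythroid and 0 of 8 for thymic epithelial ones. Beside these stand 10.1% of all genes and 14.1% of genes with any region. The part of a differing mixture of cells in the private regions was not tested.

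The 4 myeloid markers drew on 4 libraries. Itgam, an integrin chain, had a summit inside it in null library 2 (percentile 30.7), and Flt3, a cytokine receptor, had one in AD/- library 1 (28.1). Spi1, the myeloid master factor PU.1, had one in null library 1, 1369 bp from its end (15.5). Adgre1, the macrophage antigen F4/80, had one in AD/- library 2 (13.5), 60874 bp from any other library's summit. With lists of 5 to 12 genes, 1 gene moves a share by many percentage points.

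Of 40 known targets of p53, all with some region, 3 (7.5%) had a private one. The share was 10.1% for all genes and 14.1% for genes with any region. Btg2, an antiproliferative gene, had it in AD/- library 1 (percentile 25.8, 3933 bp from the gene). Polk, a translesion polymerase, and Sesn1, a stress-induced regulator of mTOR signalling, had it inside the gene in AD/- library 2 (22.3 and 21.8). All 3 were in AD/- libraries, 2 of them in AD/- library 2, which had the most private regions. That is 3 of 1298 AD/- regions and 0 of 1867 null regions, on which no test is given.

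Genes of lipid metabolism and targets of the PPAR receptors had a private region at 7 of 43 (16.3%, and 19.4% of the 36 with any region). AD/- library 2 had 4 of the 7 regions, at Pdk4, Ppard, one of the PPAR receptors itself, Ppargc1a, their coactivator, and Srebf1, the regulator of fatty acid synthesis. Among the others, null library 1 had one at Rxrg, a partner receptor of PPARs (percentile 25.5), and null library 3 at Cpt1a, which passes fatty acids into mitochondria (7.31). The 4 of AD/- library 2 had percentiles of 12 (Pdk4), 8.74 (Ppard), 13.5 (Ppargc1a) and 20.8 (Srebf1). AD/- libraries 1 and 3 and null library 2 had 0.

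Of 52 genes of axon guidance and adhesion, 6 (11.5%) had one, and of 49 neurotransmitter receptor and ion channel genes, 4 (8.16%). Many of these genes had no region of any kind nearby, and of the 25 and 21 that had one, 24% and 19% had a private one. These genes are very long, with median lengths of 580 and 396 kb. The receptor and channel genes were Gria4, a glutamate receptor subunit, Grik1, a kainate receptor subunit, and Kcnq3, a potassium channel, in AD/- library 2, and Cacna1a, a calcium channel, in null library 2. The guidance genes were Pcdh10 and Plxna4 in null library 2, Sema3d and Csmd3 in null library 1, Ntn1 in null library 3 and Epha3 in AD/- library 2.

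Developmental transcription factors had a private region at 7 of 59 (11.9%) and genes of muscle and heart at 4 of 32 (12.5%). Null library 1 had Meis2 and Nkx6-1, an islet and neural factor, and null library 2 had Sox5, Pax2 and Foxb1. The summit of Nkx6-1 lay 701 bp from the end of the gene and 99644 bp from any other library's summit. In the muscle list, Tbx5 and Pax7 were in null libraries 2 and 1, and Actn2 and Gata4 in AD/- library 2. Genes of the interferon response and antigen presentation had one at 5 of 31 (16.1%): Ifit2 in null library 1 (percentile 47.4), Bst2 in null library 3 (17.0), Irf1 and Psmb9 in AD/- library 2 (10.2 and 9.94), and Ciita in null library 2 (6.28). Housekeeping genes had one at 1 of 15, Ywhaz in AD/- library 3.

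Gene families differed in how many of their genes had any region, and in the share of those with a private one. Olfactory receptors had a private region at 9 of 1104 genes (0.815%), but only 73 had a region of any kind, and 12.3% of those had a private one. Vomeronasal receptors had one at 1 of 354 (Vmn1r77), keratins at 1 of 112 (Krt80), and defensins and clustered protocadherins at 0 of 42 and 0 of 52. In that order, only 17, 19, 4 and 10 of their genes had any region, of which 5.88%, 5.26%, 0% and 0% had a private one. These shares rest on few genes. Zinc finger genes named Zfp had one at 35 of 388 (9.02%) and solute carriers at 48 of 376 (12.8%). Of the 55 regions at solute carriers, AD/- library 2 had 23 and null library 3 had 15, the libraries with the most private regions.

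Private regions followed the chromosomes roughly as other regions did, with a few departures in single libraries. Chromosome 12 held 5.37% of private and 4.37% of all regions, and chromosome 3 held 5.88% and 5.11%. Chromosome 17 held 5.90% of the private regions of AD/- library 1 and 6.03% of those of AD/- library 2, which is 1.2 and 1.21 times its share of all their regions. In null libraries 1 to 3 it held 2.5% (12 of 480; 95% Wilson interval 1.44 to 4.32), 3.96% and 3.29%, or 0.51, 0.80 and 0.67 times. AD/- library 3 had 0 of 64 there, which allows a share of up to 4.69% by the limit of 3 counts and 5.66% by the Wilson interval, beside 5.03% of all its regions, so the genotypes overlapped once it was counted. Chromosome 19 held 4.93% of the private regions of null library 3 (1.55 times) and 1.4% of those of AD/- library 1 (0.44 times).

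Clusters of private regions of 1 library were small. In windows of 1 Mb, 1950 pairs of window and library held 1 private region, 421 held 2, 94 held 3, 19 held 4 and 3 held 5. The 3 with 5 were in AD/- library 2 on chromosome 5 (123000001 to 124000000, near Clip1, Kntc1, Lrrc43, Tmem120b and Zcchc8), in AD/- library 2 on chromosome 8 (105000001 to 106000000, near Hsf4 and Ripor1), and in null library 2 on chromosome 16 (30000001 to 31000000, near Hes1, Atp13a3, Fam43a and Xxylt1). These windows held 74 to 88 regions of the same library in all.

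Whether private regions of 1 library were neighbours at distances of at least 10 kb was tested last. Neighbours closer than 10 kb were left out, so closer clustering was not tested. The nearest private region at least 10 kb away was of the same library in 8.33%, 30.7% and 12.5% of cases in AD/- libraries 1 to 3. In null libraries 1 to 3 it was so in 16.5%, 19.2% and 24.1% of cases. The share of the library among the other private regions was 9.07%, 29.9% and 1.99%, and 15.1%, 20.7% and 23.0%. The mean excess was 1.90 ± 4.37 (SD, n = 6) percentage points, higher in 4 of 6 libraries (exact two-sided sign-flip permutation p = 0.375, adjusted p = 0.938). AD/- library 3 had the largest excess, and without it the mean excess was 0.415 percentage points.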

How the data were processed

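Each library has its own summit list from the authors, with no pooling. The deposited score was read as the −log10 of the q-value, since the lowest scores of the files were 1.30 to 1.39. The submitters' processing notes list MACS2 2.1.2, Trim Galore 0.4.5, Picard 2.9.0, Bowtie2 2.3.4.2 and build GRCm38, with no roles. Read shifting, duplicate removal and masking are not given in the sources used here. Read depth is unknown, and library 1 to 3 is the order of deposition.

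Regions were merged and counted in Python 3.11.15 (pandas 2.3.3, numpy 2.4.6), tests used SciPy 1.17.1, figures matplotlib 3.10.9, and the scripts were tested on simulated data. Genotypes were compared by the exact permutation of 20 relabellings, and classes of regions by the exact flip of signs within 6 libraries (64 flips), both two-sided at 0.05. Genes came from RefSeq on GRCm38.p6 (20665 protein-coding genes on chromosomes 1 to 19), and 441 of 452 list entries matched by symbol across 25 lists. The members and lists were chosen with earlier results of these data known. Named genes were, per library, the 4 highest percentiles and the 2 highest at a gene end (within 50 kb of a gene with a proper symbol), up to 4 per list, the 5 with most regions among genes of 3 or more libraries, the 3 fullest windows and the 3 regions on each side of each limit. The most isolated regions, the remaining list genes and the genes holding most summits were named after their values were seen. Alternatives were other extensions, scores, isolation distances, gene-end limits, assignment and neighbour limits, lists of equal length and leaving out each library. A few genes that this rule picks are not reported here.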

Additional observations from a re-analysis of the deposited data

Results flagged for a closer look

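Chromosome X was not part of the rule. Under the same score and isolation it held 84 private regions, with 7, 13 and 1 in AD/- libraries 1 to 3 and 12, 21 and 30 in null libraries 1 to 3, among 903 to 1181 summits per library there. These lie outside the main measurement and entered no comparison. The order of the libraries was not the autosomal one, in which AD/- library 2 came first.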

How the results depend on the processing

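The number of private regions followed the limits of the rule: it was 5573 with a score of at least 3, 990 with at least 10 and 1173 with an isolation of 10 kb, with 3324, 727 and 761 genes. It was 3166 and 3160 with extensions of 100 and 500 bp, and 3312 to 3580 (2162 to 2335 genes) with 1 library left out. The gap to all other regions at a gene end was negative under each alternative run, and -17.8 to -15.9 percentage points with 1 library left out, but the rule bears on it.

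The genotype difference inside a gene was negative under each alternative run, -9.0 to -2.88 with 1 library left out, -1.12 with lists of equal length and -1.55 with a score of 10 (exact permutation p = 0.7 in both). The other differences changed sign under some alternatives. The genotype difference at a gene end was 0.319 and 0.181 with an isolation of 1 and 10 kb, 0.383 with lists of equal length, 0.392 with a gene end of 2000 bp and -2.24 to 0.399 with 1 library left out. The genotype difference in median distance was 705 bp with a score of 3. Private minus 2-library regions at a gene end gave 0.0051 with a score of 3, 0.354 and 0.0463 with an isolation of 1 and 10 kb, and -1.76 to 0.318 with 1 library left out. Inside a gene that difference was 0.725 and 0.0776 with scores of 3 and 10, 0.360 with an isolation of 1 kb, and -2.02 to 0.178 with 1 library left out. In median distance it was -186 bp with an extension of 100 bp, 1432 bp with a score of 3 (exact permutation p = 0.031, not adjusted), -726 bp with a score of 10, -292 and -259 bp with an isolation of 1 and 10 kb, and -1418 to 1983 bp with 1 library left out. The neighbour excess was -0.828 with a score of 10, -0.746 with an isolation of 10 kb and 0.415 to 2.0 with 1 library left out. The causes were not tested. No paired analysis was possible because the labels give no replicate numbers that the genotypes share. Depth is unknown, so a missing summit does not show closed chromatin.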
